A study of Mus musculus with 20 samples.

Results

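The IGF-binding proteins 1 to 7 are secreted carriers of the insulin-like growth factors, encoded in the mouse by Igfbp1 to Igfbp7. The genes were chosen by symbol, and all 7 were listed among the 20738 genes of epididymal white adipose tissue (eWAT, the fat pad that lies against the epididymis) and among the 15608 genes of liver. Poly-A RNA from male mice aged 2 months was sequenced in 20 libraries, 5 in each of 4 groups: eWAT IR 4A, eWAT WT, liver IR 4A and liver WT. IR 4A mice carry an insulin receptor whose MAD2-binding motif is altered, and MAD2 is a spindle checkpoint protein that helps to take the receptor into the cell. WT mice carry the ordinary receptor. The labels name the genotype only as IR 4A or WT, with no strain, diet, treatment or further allele. Libraries are numbered 1 to 5 within each group with no animal identifier, and the p-values therefore rest on the variation among libraries, which may be technical. Total estimated counts ran from 13651874 to 21615358 per eWAT library and from 17989420 to 24238359 per liver library.

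In blood, most IGF1 and IGF2 is held by these proteins, which lengthen its life and keep it from the IGF1 receptor, and cleavage of a binding protein sets the growth factor free. IGFBP3 and IGFBP5 join the acid-labile subunit, the product of Igfals, in a larger circulating complex. Insulin represses Igfbp1 in hepatocytes by way of the transcription factor FoxO1, which makes Igfbp1 a classical readout of hepatic insulin action. IGFBP4 is cleaved by the protease PAPP-A, IGFBP6 binds IGF2 in preference to IGF1, and IGFBP7 binds the growth factors weakly and is deposited around blood vessels.

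The upstream sequences of 4 genes are shown, Igfbp1 because its promoter holds the classical insulin response element, and Igfbp3, Igfbp5 and Igfbp6 because their values differed most between tissues in the IR 4A change. RefSeq promoter windows (GRCm38.p6, 250 bases before to 50 after the start) were found for all 7 genes, with 2 windows for Igfbp2. Each line gives the last 160 bases before the start, 5′ to 3′, and capitals mark the motifs described after them.
Igfbp1, chr11:7197627-7197786, plus strand: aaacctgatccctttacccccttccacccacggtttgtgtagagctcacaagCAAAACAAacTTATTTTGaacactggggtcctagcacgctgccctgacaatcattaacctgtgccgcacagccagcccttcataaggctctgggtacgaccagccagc
Igfbp3, chr11:7213924-7214083, minus strand: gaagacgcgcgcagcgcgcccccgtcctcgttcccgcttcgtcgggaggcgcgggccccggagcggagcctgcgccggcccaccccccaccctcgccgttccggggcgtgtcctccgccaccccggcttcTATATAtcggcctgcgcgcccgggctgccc
Igfbp5, chr1:72874866-72875025, minus strand: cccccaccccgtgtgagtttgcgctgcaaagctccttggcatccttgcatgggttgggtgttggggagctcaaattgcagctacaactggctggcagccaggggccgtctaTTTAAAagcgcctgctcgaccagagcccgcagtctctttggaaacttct
Igfbp6, chr15:102144026-102144185, plus strand: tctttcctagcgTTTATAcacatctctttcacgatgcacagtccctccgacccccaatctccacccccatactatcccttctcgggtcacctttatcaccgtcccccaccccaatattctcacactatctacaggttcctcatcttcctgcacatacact

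In the Igfbp1 promoter the capitals mark CAAAACAA at bases -108 to -101 and TTATTTTG at -98 to -91, the facing parts of the insulin response element, which do not overlap. Among 32851 promoters of the same length, searched on both strands, CAAAACAA was in 2.51% and TTATTTTG in 1.66%, and neither was in the window of another IGF-binding protein. Igfbp3 had TATATA at -30 to -25 (in 5.67% of all promoters), and Igfbp5 had TTTAAA at -49 to -44 (13.2%). Igfbp6 had TATAAA on the minus strand at -148 to -143, printed above as its reverse complement, and Igfbp4 had TATAAA at -28 to -23 (13.6%). The GC box GGGCGG was in the windows of Igfbp7 and of the first Igfbp2 start (35.7%). The STAT5-type motif TTCNNNGAA (8.30%) and the FoxO consensus TGTTTAC (3.65%) matched none of the 8 windows. In gene order on GRCm38, Igfbp1 and Igfbp3 neighbour each other on chromosome 11, and Igfbp2 and Igfbp5 on chromosome 1, each pair on opposite strands. Igfbp4 is also on chromosome 11, Igfbp6 on chromosome 15 and Igfbp7 on chromosome 5.

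Some libraries stood apart. Summed levels are given in CPM, the estimated counts scaled to a common library size with TMM factors. In eWAT, markers of the epididymal epithelium summed to 17797 to 26182 CPM in IR 4A against 5219 to 18473 CPM in WT, with 12 of 12 higher in IR 4A on average, and 1 of them, Cst11, was at 0 in some library. Sperm markers reached 1793 CPM or more in IR 4A 3, IR 4A 4, WT 1 and WT 2 and were at most 671.6 CPM in the other 6. Adipocyte markers, 10 of 10 of which had a negative log2 fold change, summed to 2818 to 15457 CPM in IR 4A and 9344 to 31030 CPM in WT. Markers of fibroblasts and adipose progenitors were negative in 12 of 12, at 958.0 to 2665 CPM in IR 4A and 3421 to 8304 CPM in WT, with no overlap. In liver, hepatocyte markers summed to 77410 to 88819 CPM in IR 4A and 77145 to 98339 CPM in WT. Acute phase genes were high in 2 WT livers, at 54838 CPM in WT 1 and 29814 CPM in WT 3, against 4981 to 9608 CPM in IR 4A livers. In liver the fibroblast list was positive in 10 of 10 tested, at 222.9 to 310.3 CPM in IR 4A and 188.5 to 217.8 CPM in WT, and Mfap5 of that list was not listed. No epididymal or sperm marker was listed in liver.

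In liver, IR 4A was compared with WT to ask whether the altered receptor changes binding-protein mRNA in the organ that makes most circulating IGF1. Igfbp3, Igfbp5 and Igfbp6, which are low in liver, averaged more than 2 times their WT level in IR 4A livers, while Igfbp1, Igfbp2 and Igfbp4, the abundant ones, differed by less than the spread between libraries. None of the 7 passed an adjusted p of 0.05 (quasi-likelihood test of edgeR, with p adjusted over 12421 genes by Benjamini-Hochberg), against 0% of all genes called higher and 0.00805% called lower. At an unadjusted p under 0.05, Igfbp3, Igfbp5 and Igfbp6 were higher and 0 were lower, against 8.6% of all genes higher and 9.48% lower, and Igfbp6 passed the filter on low counts through the IR 4A group alone. DESeq2 called Igfbp3 (adjusted p = 0.00897) and Igfbp5 (0.00497) higher, where it called 1.63% of all genes higher and 2% lower. Limma voom called 0 of the 7, against 0.0161% of all genes higher and 0.0161% lower. Over all genes edgeR called 0 higher and 1 lower, with 1068 higher and 1178 lower at an unadjusted p under 0.05. Scaling by library totals moved the median of all genes to 0.16, against 0.00 with TMM, and gave 374 higher and 12 lower, with Igfbp3 at 1.29 and Igfbp5 at 1.54 called (edgeR adjusted p = 0.0457 and 0.0425). In whole tissue, fewer cells of a type and less RNA per cell cannot be told apart.

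Igfbp1, whose product is the insulin-repressed carrier, had 99.4, 97.9, 50.7, 59.6 and 49.9 CPM in IR 4A livers 1 to 5, against 70.0, 101.4, 78.4, 106.0 and 86.3 CPM in WT livers. The IR 4A libraries fell into a pair near the top of the WT range and 3 below all WT libraries. The means were 71.5 ± 25.1 CPM in IR 4A and 88.4 ± 15.2 CPM in WT (SD, n = 5 each), a log2 fold change of -0.31 with an SE of 0.21 (edgeR adjusted p = 0.461). Igfbp2, an abundant hepatic carrier, had 359.3, 228.4, 311.0, 345.2 and 295.8 CPM in IR 4A livers, against 216.0, 385.5, 187.5, 381.4 and 338.2 CPM in WT livers. The 2 lowest WT values came from WT 1 and WT 3, the livers high in acute phase genes. Igfbp2 had a log2 fold change of 0.03 with an SE of 0.21 (edgeR adjusted p = 0.959), and -0.26 with those 2 livers left out (adjusted p = 0.432). Igfbp4, the inhibitory carrier cleaved by PAPP-A, was the steadiest, at 1198, 1160, 1132, 1163 and 1154 CPM in IR 4A livers against 1118, 1273, 1088, 1085 and 1258 CPM in WT livers. Its log2 fold change was -0.00 (SE 0.09, edgeR adjusted p = 0.988), the smallest SE of the 7, and its sign depended on the setting.

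Igfbp3, the main carrier of the circulating complex, had 6.56, 9.39, 16.9, 19.5 and 10.8 CPM in IR 4A livers, against 4.60, 7.67, 6.60, 4.07 and 5.83 CPM in WT livers. Only IR 4A 1 lay within the WT range. The means were 12.6 ± 5.39 CPM in IR 4A and 5.76 ± 1.46 CPM in WT (SD, n = 5 each), a log2 fold change of 1.13 with an SE of 0.28 (edgeR adjusted p = 0.123). Igfbp5, which binds extracellular matrix, had 5.93, 16.5, 18.1, 13.2 and 9.59 CPM in IR 4A livers, against 6.23, 6.74, 4.05, 2.04 and 5.23 CPM in WT livers. Again only IR 4A 1 overlapped WT. The log2 fold change of Igfbp5 was 1.38 (SE 0.33, edgeR adjusted p = 0.115). With IR 4A 1 left out, both passed, with log2 fold changes of 1.29 for Igfbp3 and 1.56 for Igfbp5 (edgeR adjusted p = 0.0439 for both). Over all 22 alternatives the adjusted p ran from 0.00897 to 0.299 for Igfbp3 and from 0.00497 to 0.286 for Igfbp5, each called in 3.

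Igfbp6 was near the detection limit in liver, with 16, 26, 19, 20 and 10 counts in IR 4A libraries 1 to 5 and 9, 3, 9, 0 and 4 counts in WT libraries. These correspond to 0.714, 1.31, 0.715, 0.942 and 0.527 CPM in IR 4A, against 0.505, 0.166, 0.450, 0 and 0.199 CPM in WT, where a count of 0 allows up to 0.185 CPM (3 counts; counting error only). All 5 IR 4A libraries were above all 5 WT libraries, as were 1.68% of all genes, while 1.83% lay wholly below. Since the filter was passed through IR 4A alone, the difference of Igfbp6 is partly set by it. Its log2 fold change was 1.62 (SE 0.51, edgeR adjusted p = 0.167). Igfbp7, the carrier laid down around vessels, had 25.9, 37.1, 41.9, 41.3 and 39.1 CPM in IR 4A livers and 35.0, 19.9, 27.4, 22.3 and 38.7 CPM in WT livers, which overlapped. Its log2 fold change was 0.37 (SE 0.19, edgeR adjusted p = 0.313). For Igfbp3, Igfbp5, Igfbp6 and Igfbp7 the direction was the same in every alternative run, 21 for Igfbp6 and 22 for each of the others.

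The libraries with more of these transcripts also differed in cell type markers. After removal of group means, Igfbp7 followed markers of smooth muscle and pericytes (r = 0.91 over 10 livers) and of vascular endothelium (0.87). Its r was 0.83 with stellate cell, 0.82 with sinusoidal endothelial and 0.73 with fibroblast markers. Igfbp5 followed markers of Kupffer cells and macrophages (r = 0.84). Igfbp2 ran against mesothelial markers (r = -0.93, from the 4 that passed the filter on low counts). The 9 mesothelial markers listed in liver summed to 5.35 to 8.46 CPM in IR 4A and 1.71 to 6.20 CPM in WT, and 5 were at 0 in some liver. Kupffer cell and macrophage markers summed to 80.6 CPM in IR 4A 1 and 150.1 to 296.2 CPM in the other IR 4A livers, against 119.5 to 226.7 CPM in WT, with 9 of 10 positive. Vascular endothelial markers were positive in 10 of 10, at 56.9 to 126.2 CPM in IR 4A and 54.7 to 138.3 CPM in WT. With the fibroblast marker level as a covariate the log2 fold changes in liver were 0.93 for Igfbp3, 1.08 for Igfbp5, 1.20 for Igfbp6 and 0.04 for Igfbp7. That covariate was chosen after seeing the data, and the summed level of its markers did not overlap between genotypes in liver. The fit thus leans on the slope within groups. The part of the cell types in these differences was not tested.

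In eWAT the same comparison gave lower averages in IR 4A for Igfbp3, Igfbp4, Igfbp5, Igfbp6 and Igfbp7 and a higher one for Igfbp2. None of the 6 tested genes passed (edgeR, adjusted over 16476 genes), against 0% of all genes called higher and 0.0121% called lower. At an unadjusted p under 0.05, Igfbp4 and Igfbp6 were lower and 0 were higher, against 9.24% of all genes lower and 6.63% higher. DESeq2 called Igfbp6 lower (adjusted p = 0.0464; 0.0464 to 0.590 over its 23 alternatives), where it called 4.13% of all genes lower and 3.17% higher. Limma voom called 0 of the 6, against 0.364% of all genes lower and 0.109% higher. Over all genes edgeR called 0 higher and 2 lower, with 1092 higher and 1523 lower at an unadjusted p under 0.05. The groups overlapped for all 6, while 2.52% of all genes lay wholly above WT and 3.22% wholly below. The spread was wider than in liver, with a common biological coefficient of variation of 0.512 in eWAT and 0.187 in liver.

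**Figure D1:**
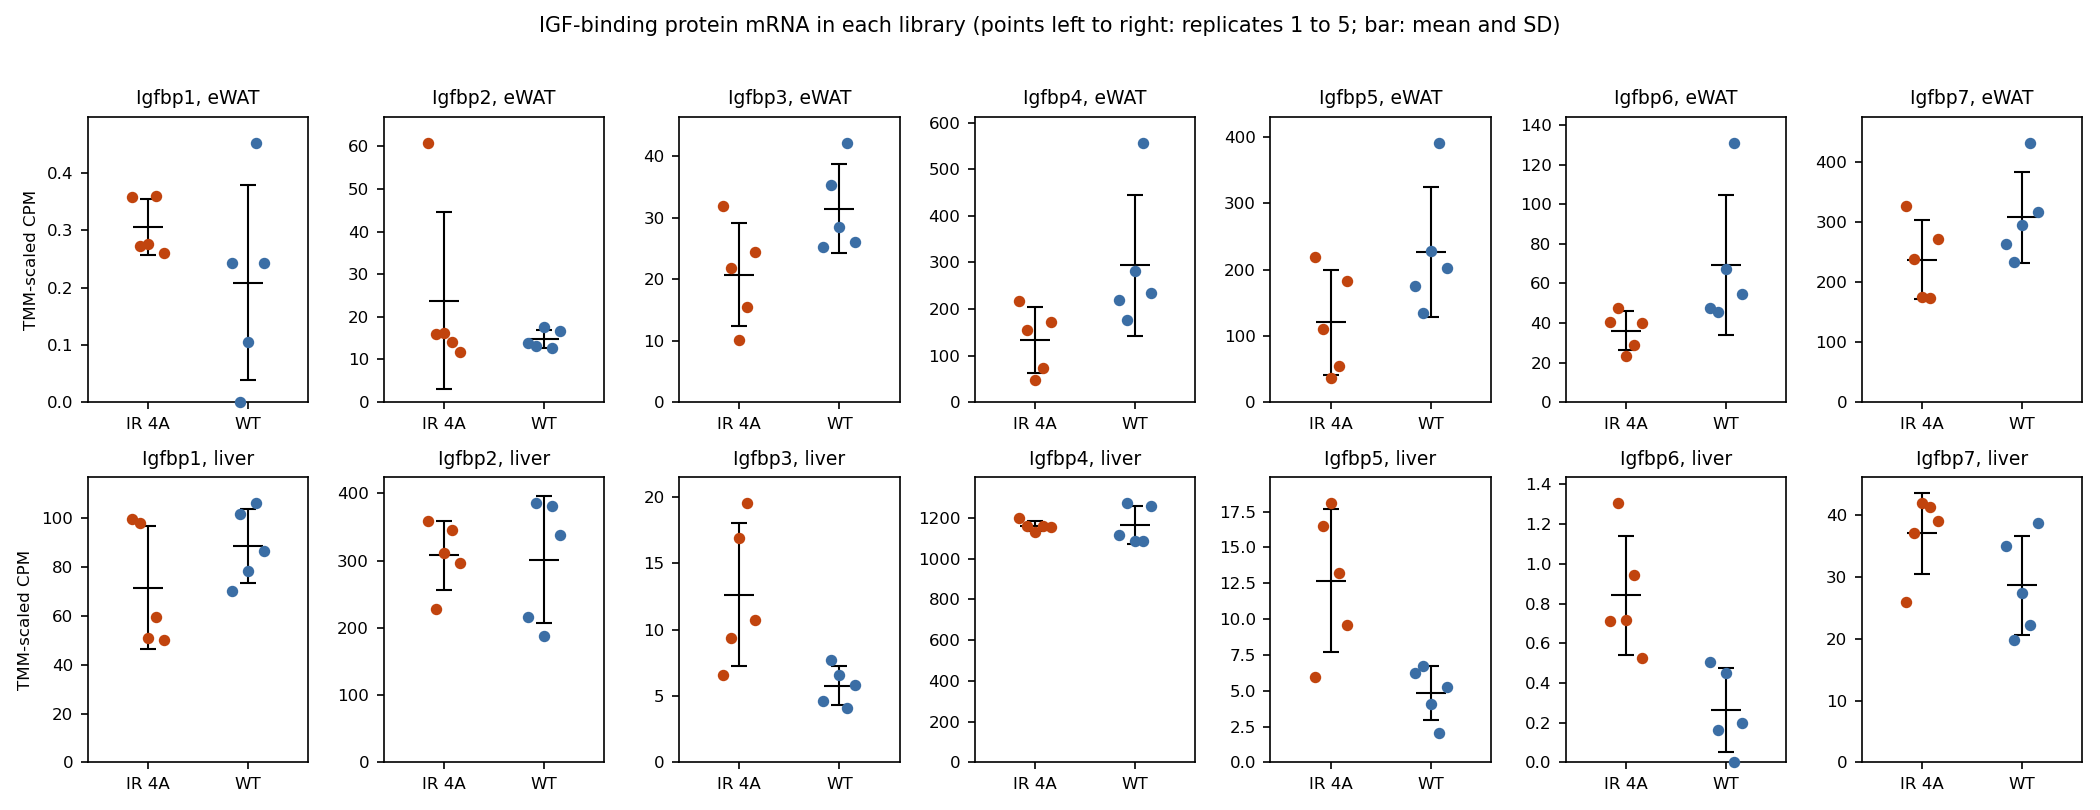
TMM-scaled CPM of the 7 genes (vertical axis, each from 0) in eWAT (upper row) and liver (lower row), with IR 4A left of WT. Points are libraries 1 to 5 from left to right and bars are means and SD. In liver the IR 4A points of Igfbp6 lie above all WT points, and in eWAT a single IR 4A point of Igfbp2, at 60.8 CPM, stands far above the rest.

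Igfbp4 had 217.4, 155.1, 48.1, 72.8 and 171.1 CPM in IR 4A eWAT 1 to 5, against 219.9, 176.5, 280.8, 556.4 and 234.1 CPM in WT eWAT. IR 4A 3 and 4 were far below the rest and WT 4 far above it. The means were 132.9 ± 70.5 CPM in IR 4A and 294 ± 152 CPM in WT (SD, n = 5 each), a log2 fold change of -1.14 with an SE of 0.45 (edgeR adjusted p = 0.275). Igfbp5 was likewise lowest in IR 4A 3 and 4 and highest in WT 4, with 218.7, 110.5, 37.0, 54.2 and 182.7 CPM in IR 4A and 175.2, 135.0, 228.1, 391.3 and 202.6 CPM in WT. Its log2 fold change was -0.91 (SE 0.49, edgeR adjusted p = 0.394). Igfbp6, the IGF2-preferring carrier, had 40.7, 47.6, 23.1, 28.7 and 40.1 CPM in IR 4A and 47.8, 45.5, 67.3, 131.1 and 54.7 CPM in WT. Among IR 4A libraries only IR 4A 2 reached the WT range. The log2 fold change of Igfbp6 was -0.94 (SE 0.32, edgeR adjusted p = 0.239).

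Igfbp3 had 32.0, 21.8, 10.1, 15.5 and 24.5 CPM in IR 4A eWAT and 25.3, 35.4, 28.5, 42.2 and 26.0 CPM in WT eWAT. IR 4A 1 was within the WT range and the other 4 were below it, and the log2 fold change was -0.60 (SE 0.29, edgeR adjusted p = 0.348). Igfbp7 had 326.1, 238.6, 175.6, 173.1 and 271.3 CPM in IR 4A and 263.6, 232.9, 294.2, 431.0 and 315.9 CPM in WT, and a log2 fold change of -0.38 with an SE of 0.22 (edgeR adjusted p = 0.427). Igfbp2 had 60.8 CPM in IR 4A 1 and 16.0, 16.3, 14.2 and 11.7 CPM in IR 4A 2 to 5, against 13.9, 13.2, 17.5, 12.7 and 16.7 CPM in WT. Its log2 fold change was 0.68 (SE 0.44, edgeR adjusted p = 0.470), and without IR 4A 1 it was -0.03 (adjusted p = 0.938). Igfbp1 was not tested in eWAT, where it had 5, 4, 4, 6 and 4 counts in IR 4A and 5, 0, 2, 9 and 4 counts in WT. The count of 0 allows up to 0.197 CPM.

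Within groups, Igfbp3, Igfbp4, Igfbp5, Igfbp6 and Igfbp7 varied together from library to library. After removal of group means, Pearson's r over the 10 eWAT libraries was 0.98 between Igfbp4 and Igfbp5, 0.95 between Igfbp5 and Igfbp7, 0.94 between Igfbp4 and Igfbp7, and 0.69 between Igfbp3 and Igfbp6, the lowest among Igfbp3 to Igfbp7. Igfbp2 had an r between 0.08 and 0.44 with the others. In liver the genes were less alike, from -0.77 between Igfbp2 and Igfbp6 to 0.63 between Igfbp3 and Igfbp5. These values share libraries and their scaling, and are descriptions. In eWAT the adipocyte marker level followed Igfbp4 and Igfbp5 most closely (r = 0.99 for both), with 0.95 for Igfbp7, 0.87 for Igfbp3, 0.85 for Igfbp6 and 0.32 for Igfbp2. The fibroblast marker level gave 0.97 for Igfbp4, 0.93 for Igfbp5, 0.91 for Igfbp7, 0.90 for Igfbp6 and 0.88 for Igfbp3. Vascular endothelial markers gave 0.98 for Igfbp4, 0.96 for Igfbp5 and Igfbp7, and 0.85 for Igfbp3 and Igfbp6. With the list for stellate cells of the liver, r ran from 0.68 for Igfbp6 to 0.93 for Igfbp3. Sperm markers ran against the 5 genes, from -0.57 for Igfbp3 to -0.91 for Igfbp7. Other cell types differed too, with macrophage markers at 90.3 to 188.7 CPM in IR 4A eWAT and 226.1 to 655.1 CPM in WT eWAT and mesothelial markers at 205.9 to 260.9 and 279.2 to 343.6 CPM. Vascular endothelial markers were negative in 10 of 10, at 221.3 to 844.5 CPM in IR 4A eWAT and 599.5 to 1688 CPM in WT eWAT. The list for sinusoidal endothelium of the liver was negative in 8 of 8 tested in eWAT, at 111.2 to 164.3 CPM in IR 4A and 166.4 to 343.9 CPM in WT, with no overlap. The part of these cell types was not tested.

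**Figure D2:**
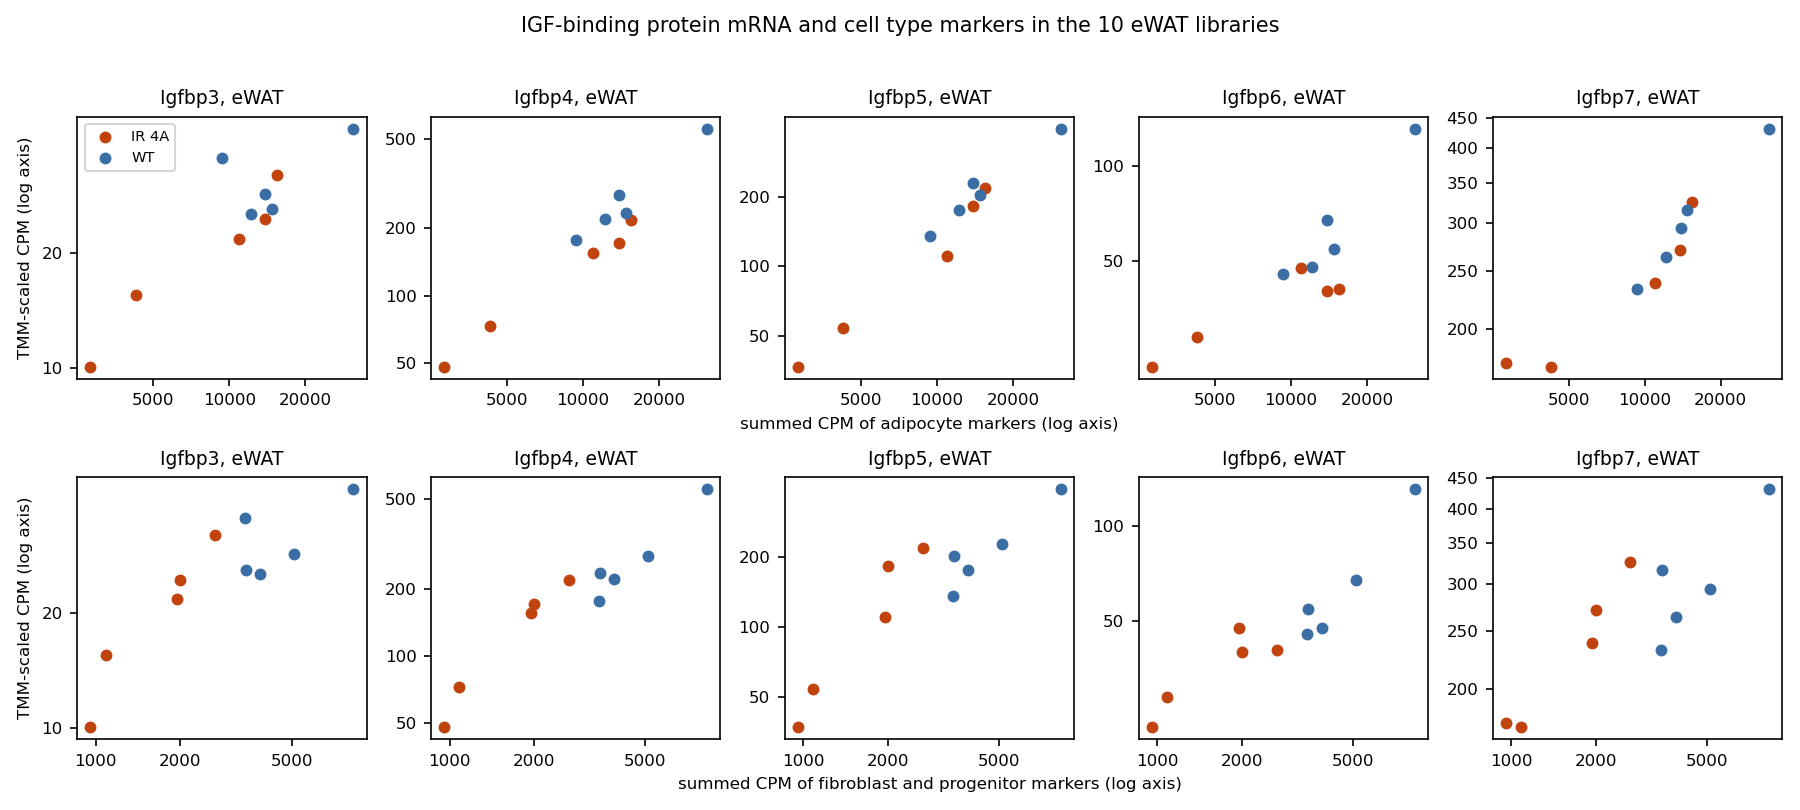
CPM of Igfbp3 to Igfbp7 (vertical, log axis) against the summed CPM of adipocyte markers (upper row) and of fibroblast and adipose progenitor markers (lower row, both horizontal, log axes) in the 5 IR 4A and 5 WT eWAT libraries. IR 4A 3 and IR 4A 4, at 2818 and 4256 CPM of adipocyte markers, have the lowest level of every gene shown, and WT 4, at 31030 CPM, the highest.

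With the fibroblast marker level as a covariate, chosen after seeing the data, the log2 fold changes in eWAT turned positive for all 5 genes, at 0.32 for Igfbp3, 0.55 for Igfbp4, 0.80 for Igfbp5, 0.28 for Igfbp6 and 0.39 for Igfbp7 (edgeR adjusted p from 0.0805 to 0.493). Since the summed level of these markers did not overlap between genotypes, that fit leans on the slope within groups. With the epididymal marker level as a covariate they stayed negative, from -0.67 for Igfbp4 to -0.17 for Igfbp7. Without the 4 libraries high in sperm markers they ran from -0.97 for Igfbp4 and Igfbp6 to -0.29 for Igfbp3.

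Whether the IR 4A change differs between the tissues was tested as the eWAT change minus the liver change in a fit of all 20 libraries. Igfbp3 and Igfbp6 passed, and both differences were negative, with higher IR 4A averages in liver and lower ones in eWAT. The difference was -1.75 for Igfbp3 (SE 0.42, edgeR adjusted p = 0.0395) and -2.58 for Igfbp6 (SE 0.60, adjusted p = 0.0356). Of the 7 genes, 2 were thus called lower and 0 higher, against 1.67% and 0.735% of the 14696 genes tested. Over all genes edgeR called 108 higher and 246 lower. That split became 161 and 180 with RLE scaling and 196 and 168 with upper-quartile scaling. Scaling by totals gave 70 and 661. The median difference over all genes was -0.12 and lay at -0.02 with upper-quartile scaling, where Igfbp3 had -1.67 and Igfbp6 -2.49 and both passed (edgeR adjusted p = 0.0406 and 0.0363). DESeq2 called Igfbp3, Igfbp5 and Igfbp6 lower, where it called 4.56% of all genes lower and 4.1% higher, while limma voom called Igfbp3 alone (adjusted p = 0.0486, and 0.0861 for Igfbp6), where it called 2.53% lower and 1.74% higher. Igfbp5 had -2.31 (SE 0.62, edgeR adjusted p = 0.0540), Igfbp4 -1.16 (SE 0.46, adjusted p = 0.148) and Igfbp7 -0.77 (SE 0.30, adjusted p = 0.141). Igfbp1 had 0.76 (SE 0.59, adjusted p = 0.474) and Igfbp2 0.62 (SE 0.49, adjusted p = 0.488).

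These calls lie near the threshold. With single libraries left out, Igfbp3 stayed past it in 6 of 20 fits, those without liver IR 4A 1, liver WT 2, eWAT IR 4A 1, eWAT IR 4A 5, eWAT WT 1 or eWAT WT 5, and had an edgeR adjusted p of 0.0514 to 0.0820 in the other 14. Igfbp6 stayed past it in 11 of 20 fits, and was lost without liver IR 4A 2, 3, 4 or 5, liver WT 2 or 5, eWAT IR 4A 3 or 4, or eWAT WT 3, with an edgeR adjusted p of at most 0.0697. Igfbp5 passed without liver IR 4A 1 (adjusted p = 0.0325), eWAT IR 4A 1 (0.0345), eWAT IR 4A 5 (0.0479) or eWAT WT 5 (0.0467). The difference of these 3 genes kept its sign in all 31 alternatives run, from -1.95 to -1.43 for Igfbp3, from -2.63 to -1.95 for Igfbp5 and from -3.64 to -2.14 for Igfbp6. Without liver WT 1 and WT 3 the adjusted p was 0.0901 for Igfbp3 and 0.0349 for Igfbp6, and without the 4 eWAT libraries high in sperm markers 0.134 and 0.0825. With a block for replicate number, 0 of all genes differed between tissues, and both calls were lost.

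**Figure D3:**
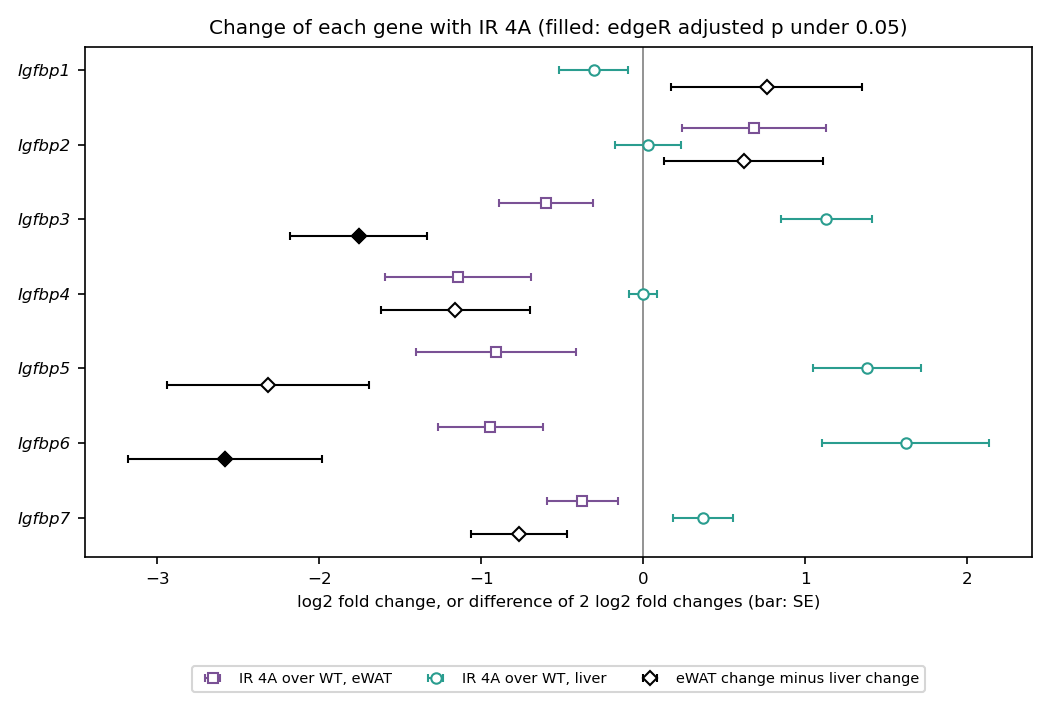
Log2 fold change of IR 4A over WT in eWAT (squares) and in liver (circles), and the eWAT change minus the liver change (diamonds), for the 7 genes, with SE as bars. Filled symbols passed an edgeR adjusted p of 0.05, and these are the differences of Igfbp3 (-1.75) and Igfbp6 (-2.58). Igfbp1 was not tested in eWAT alone.

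The levels split the family between the tissues. On the scale of the 20-library fit, eWAT over liver in WT mice passed for all 7 genes, with 4 higher and 3 lower, where 43.2% of all genes were called higher and 33.9% lower. Igfbp6 was higher in WT eWAT by a log2 fold change of 6.65 (45.3 ± 22.3 CPM against 0.437 ± 0.348 CPM in WT liver, SD, n = 5 each), Igfbp5 by 4.20 (148.2 ± 61.6 against 8.02 ± 3.14 CPM), Igfbp7 by 2.09 (201.7 ± 46.3 against 47.3 ± 13.6 CPM) and Igfbp3 by 1.12 (20.7 ± 4.42 against 9.49 ± 2.45 CPM). Igfbp1 had -9.92 (0.136 ± 0.109 CPM in WT eWAT against 145.5 ± 23.6 CPM in WT liver), Igfbp2 -5.67 (9.75 ± 1.51 against 496 ± 151 CPM) and Igfbp4 -3.32 (191.9 ± 95.1 against 1918 ± 163 CPM). The edgeR adjusted p was at most 0.00243. In IR 4A mice 3 were higher and 3 lower, where 40.5% of all genes were called higher and 34.8% lower. The log2 fold changes of eWAT over liver in IR 4A were 4.07 for Igfbp6, 1.89 for Igfbp5, 1.33 for Igfbp7, -9.16 for Igfbp1, -5.05 for Igfbp2 and -4.48 for Igfbp4 (edgeR adjusted p of at most 0.000746).

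Igfbp3 alone did not pass in IR 4A mice, with 13.7 ± 5.34 CPM in eWAT against 21.3 ± 9.20 CPM in liver (SD, n = 5 each), a log2 fold change of -0.63 with an SE of 0.30 (edgeR adjusted p = 0.0594). By mean, Igfbp3 was highest in liver IR 4A, followed by eWAT WT, then eWAT IR 4A, with liver WT last, and each overlapped its neighbour. For Igfbp1, Igfbp2 and Igfbp4 both liver groups lay above both eWAT groups, and for Igfbp6 and Igfbp7 below them, with no overlap between tissues. For Igfbp5 the eWAT groups stood higher, and eWAT IR 4A overlapped liver IR 4A. The sign for Igfbp3 in IR 4A depended on the scaling, since TMM factors were 1.48 to 1.81 in eWAT and 0.548 to 0.647 in liver. With scaling by totals it was 0.77 (edgeR adjusted p = 0.0179), and the median of all genes was 1.55, against 0.12 with TMM. That scaling turned the split of all calls between tissues in WT from 6348 higher and 4978 lower to 12161 and 1416, and upper-quartile scaling gave 7641 and 3904. In IR 4A mice the calls were 5949 higher and 5113 lower, 11720 and 1581 by totals, and 7702 and 3757 by upper quartile. Of the 7 genes, this one alone changed direction between tissues in any alternative.

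Compared per length, as CPM divided by the longest GENCODE M21 transcript in kb, the 7 genes stood in different orders in the tissues. In eWAT, Igfbp7 led with 130.6 ± 33.7 CPM per kb in IR 4A and 168.0 ± 38.6 CPM per kb in WT (SD, n = 5 each), and its range did not meet that of the next gene. Its share of the summed level of the 7 was 64.6% ± 5.14 in IR 4A and 57.0% ± 4.32 in WT. Igfbp4 followed with 22.8 ± 11.8 CPM per kb in IR 4A and 50.1 ± 24.8 CPM per kb in WT, then Igfbp6 with 21.4 ± 5.49 and 40.7 ± 20.1, and Igfbp5 with 13.2 ± 8.53 and 24.7 ± 10.3. Neighbours among these 3 overlapped in both genotypes. Igfbp2 and Igfbp3 averaged less, overlapped each other and changed places between genotypes by mean. Igfbp3 was above Igfbp2 in 2 of 5 WT libraries, and Igfbp2 was above Igfbp3 in 4 of 5 IR 4A libraries. In IR 4A the range of Igfbp2 also met that of Igfbp5, while Igfbp1 was last at 0.133 ± 0.0218 CPM per kb in IR 4A and 0.0893 ± 0.0717 in WT.

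In liver, Igfbp4 led with 510.2 ± 7.37 CPM per kb in IR 4A and 500.7 ± 42.4 CPM per kb in WT, or 48.7% ± 2.56 and 49.6% ± 5.66 of the summed level. Igfbp2 held 37.5% ± 4.32 in IR 4A and 36.5% ± 6.67 in WT, at 396.4 ± 64.7 and 380 ± 116 CPM per kb. Igfbp1 came next with 78.9 ± 27.4 CPM per kb in IR 4A and 95.4 ± 15.5 in WT, then Igfbp7 with 52.0 ± 9.49 and 39.4 ± 11.4, Igfbp3 with 8.79 ± 3.80 and 3.92 ± 1.01, Igfbp5 with 3.56 ± 1.42 and 1.34 ± 0.523, and Igfbp6 with 1.27 ± 0.458 and 0.393 ± 0.313. The order was the same in both genotypes, and the pairs whose ranges overlapped were Igfbp1 and Igfbp7 in IR 4A, Igfbp4 and Igfbp2 in WT, Igfbp3 and Igfbp5 in IR 4A, and Igfbp5 and Igfbp6 in both. The summed level of the 7 was 206 ± 67.0 CPM per kb in eWAT IR 4A, 299.6 ± 93.5 in eWAT WT, 1051 ± 62.9 in liver IR 4A and 1021 ± 150 in liver WT. Transcript length matters most for Igfbp4, whose longest transcript is 3.831 kb and whose median is 0.7635 kb. With median lengths, Igfbp4 would stand first in eWAT WT, at 251.3 CPM per kb against 174.1 for Igfbp7, and second in eWAT IR 4A, at 114.6 against 135.3. In liver it would reach 2560 CPM per kb in IR 4A and 2512 CPM per kb in WT. The shares and summed levels above used the longest transcripts only and depend on that choice in both tissues.

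**Figure D4:**
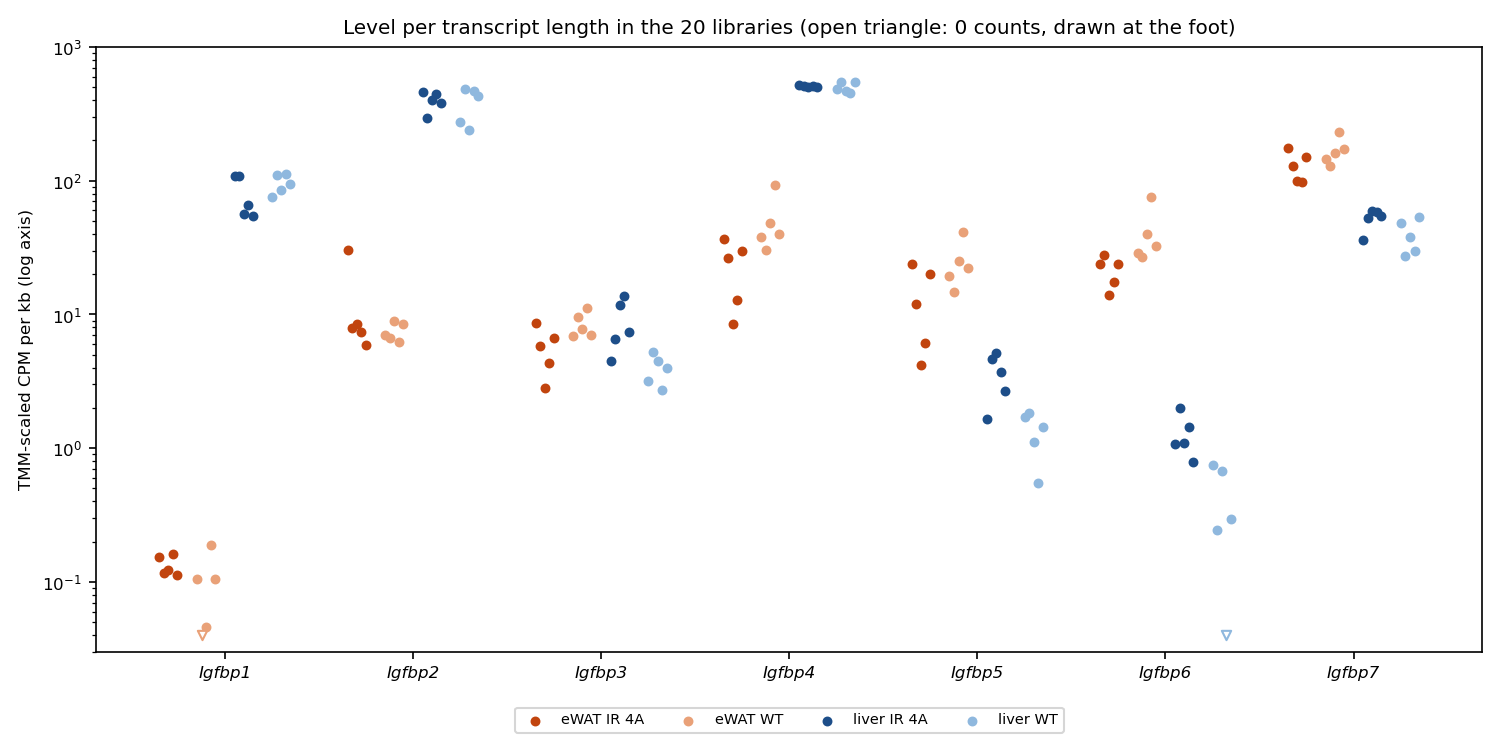
TMM-scaled CPM per kb of the longest transcript (vertical, log axis) for the 7 genes in each of the 20 libraries, with eWAT IR 4A, eWAT WT, liver IR 4A and liver WT from left to right within each gene. Open triangles stand for 0 counts. Igfbp1, Igfbp2 and Igfbp4 lie higher in liver and Igfbp5, Igfbp6 and Igfbp7 in eWAT, while the groups of Igfbp3 intermingle.

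The growth factors and receptors that the carriers serve were read next, from lists given by role. In liver Igf1, the main ligand, stood at 532 ± 50.2 CPM in IR 4A and 526 ± 51.0 CPM in WT (SD, n = 5 each), a log2 fold change of 0.02 with an SE of 0.10 (edgeR adjusted p = 0.943). Igfals, which encodes the acid-labile subunit, had 48.7 ± 6.60 CPM in IR 4A liver and 50.7 ± 10.6 CPM in WT liver, and Ghr, the growth hormone receptor, 397 ± 50.5 and 348 ± 88.8 CPM. Igf1r, the IGF1 receptor, was scarce in liver at 2.11 ± 0.460 CPM in IR 4A and 1.79 ± 0.505 CPM in WT. In eWAT Igf1 had 80.7 ± 44.0 CPM in IR 4A and 180 ± 72.3 CPM in WT, a log2 fold change of -1.16 with an SE of 0.42 (edgeR adjusted p = 0.250). Igf2, the ligand that IGFBP6 prefers, had 9.44 ± 1.52 CPM in IR 4A eWAT and 18.0 ± 4.67 CPM in WT eWAT without overlap, a log2 fold change of -0.93 with an SE of 0.19 (edgeR adjusted p = 0.164). Of the 10 ligands and receptors tested in eWAT, 1 lay wholly below WT, against 3.22% of all genes. Igf1r in eWAT had 243 ± 30.7 CPM in IR 4A and 166 ± 64.2 CPM in WT, a log2 fold change of 0.55 with an SE of 0.28 (edgeR adjusted p = 0.363).

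Of 10 ligands and receptors tested in eWAT, 8 had a negative log2 fold change (median -0.36, against -0.08 over all genes), and edgeR called 0. At an unadjusted edgeR p under 0.05, 3 were lower and 0 higher, against 9.24% and 6.63% of all genes. DESeq2 and limma voom each called Igf2 lower, where they called 4.13% and 0.364% of all genes lower. Of 8 tested in liver, 5 were positive (median 0.03, against 0.00 over all genes), with 0 called by edgeR, DESeq2 or limma voom and 0 at an unadjusted p under 0.05.

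Genes for proteases that cut the carriers and their inhibitors were negative in 16 of 21 tested in eWAT (median -0.44), against 40.1% of all genes positive. EdgeR called 0, and 9 of the 21 were lower at an unadjusted p under 0.05, against 9.24% of all genes. DESeq2 called 7 lower, against 4.13% of all genes, and limma voom called Timp2 alone, against 0.364% of all genes lower. Timp2, an inhibitor of matrix metalloproteinases, had 103 ± 26.7 CPM in IR 4A eWAT and 277 ± 119 CPM in WT eWAT (log2 fold change -1.43, SE 0.29, edgeR adjusted p = 0.164), and Mmp2, a gelatinase, 16.4 ± 7.95 and 48.5 ± 26.3 CPM (-1.57, SE 0.43, adjusted p = 0.203), both without overlap. Of the 21 tested, 4 lay wholly below WT, against 3.22% of all genes. In liver 7 of 11 were positive (median 0.17) and edgeR called 0. At an unadjusted edgeR p under 0.05, 3 were higher, against 8.6% of all genes. Htra1, among these 3, averaged 1.19 CPM in IR 4A liver and 0.489 CPM in WT liver, near the filter on low counts. It may have passed that filter through IR 4A alone. DESeq2 called Timp2 higher, where it called 1.63% of all genes higher, and limma voom called 0. Timp2 had 8.22 ± 0.714 CPM in IR 4A liver and 5.45 ± 1.44 CPM in WT liver (log2 fold change 0.59, SE 0.17, edgeR adjusted p = 0.146). Of the 11 tested in liver, 1 lay wholly above WT, against 1.68% of all genes. The difference between tissues passed for Timp2 at -2.04 (SE 0.34, edgeR adjusted p = 0.0141), for Htra1, a serine protease with an IGFBP domain, at -2.17 (SE 0.49, adjusted p = 0.0338), and for Adamts1, a matrix protease, at -1.14 (SE 0.30, adjusted p = 0.0497), 3 lower of 22 tested against 1.67% of all genes. DESeq2 called these 3 and 3 others lower, against 4.56% of all genes. Limma voom called Timp2 alone, against 2.53% of all genes lower, and not Htra1 or Adamts1. With the replicate block, 0 of all genes differed between tissues. Pappa, the protease of IGFBP4, had 3.16 ± 0.644 CPM in IR 4A eWAT and 4.89 ± 3.97 CPM in WT eWAT, and its inhibitor Stc2 had 39.5 ± 7.34 and 36.9 ± 6.51 CPM. Neither was tested in liver, where Pappa averaged 0.126 CPM in IR 4A and 0.0748 CPM in WT, and Stc2 0.240 and 0.225 CPM. The fibroblast marker sums, given above, were lower in all IR 4A eWAT and higher in all IR 4A livers than in any WT library of the tissue, as was Timp2, and their part was not tested for these genes.

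Other genes whose proteins carry the IGFBP domain, among them Htra1 and Htra3 of the previous list, had negative values in eWAT and positive values in liver. All 11 tested in eWAT were negative (median -0.87), where 40.1% of all genes were positive. Of the 11, 7 had an unadjusted p under 0.05, against 9.24% of all genes lower at that p, with 0 called by edgeR or limma voom and 5 called lower by DESeq2, against 4.13% of all genes. All 6 tested in liver were positive (median 0.59), where 51.0% of all genes were, with 3 at an unadjusted p under 0.05, against 8.6% of all genes higher at that p. EdgeR and limma voom called 0 of them and DESeq2 called Ccn2 higher, where it called 1.63% of all genes higher. Near the filter on low counts were Htra1, at 1.19 CPM in IR 4A liver and 0.489 CPM in WT liver, and Ccn4, at 0.615 and 0.466 CPM. A gene that low may pass the filter through IR 4A alone. The signs of the genes tested in liver may thus be partly set by the filter. The matricellular genes Ccn5 and Ccn3 had 1.25 ± 0.369 and 1.85 ± 0.678 CPM in IR 4A eWAT against 3.88 ± 1.51 and 6.83 ± 4.56 CPM in WT eWAT, without overlap (edgeR adjusted p = 0.164 and 0.173). Of the 11 tested in eWAT, 3 lay wholly below WT, against 3.22% of all genes. Ccn2, the connective tissue growth factor, had 6.85 ± 1.15 CPM in IR 4A liver and 4.00 ± 1.36 CPM in WT liver (log2 fold change 0.77, SE 0.22, edgeR adjusted p = 0.144). The fibroblast marker sums, given above, moved with these genes in both tissues, below all WT libraries in IR 4A eWAT and above them in IR 4A liver, and their part was not tested for this list.

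Partners at the cell surface and in the matrix were negative in 10 of 12 tested in eWAT (median -0.74) and in 7 of 11 in liver (median -0.02). EdgeR called 0 in either tissue. At an unadjusted edgeR p under 0.05, 4 were lower in eWAT and 3 lower in liver, against 9.24% and 9.48% of all genes. DESeq2 called Fn1 and Lrp1 lower in eWAT, where it called 4.13% of all genes lower, and limma voom called 0. The part of the fibroblast markers was not tested for these genes either. Fn1, fibronectin, had 82.6 ± 49.8 CPM in IR 4A eWAT and 569 ± 469 CPM in WT eWAT (log2 fold change -2.79, SE 0.63, edgeR adjusted p = 0.173), and Lrp1, a receptor that binds IGFBP3, 209 ± 91.7 and 510 ± 250 CPM (-1.28, SE 0.40, adjusted p = 0.228). Of the regulators, 15 of 20 were negative in eWAT (median -0.19) and 12 of 22 positive in liver (median 0.04). EdgeR called 0 of them in either tissue. At an unadjusted edgeR p under 0.05 the regulators held 1 higher and 1 lower in eWAT, against 6.63% and 9.24% of all genes. In liver they held 2 higher and 2 lower, against 8.6% and 9.48%. DESeq2 called Atf4 higher in eWAT and Cish higher in liver, against 3.17% and 1.63% of all genes, and limma voom called 0. Foxo1, the insulin-responsive factor that drives Igfbp1, had 56.1 ± 9.83 CPM in IR 4A liver and 55.3 ± 13.0 CPM in WT liver (log2 fold change 0.02, SE 0.16, edgeR adjusted p = 0.963). Cish, a target of growth hormone and STAT5 signalling, had 23.1 ± 13.5 CPM in IR 4A liver and 6.02 ± 2.11 CPM in WT liver (log2 fold change 1.95, SE 0.44, edgeR adjusted p = 0.113).

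The genes whose levels were most like each carrier were taken as the highest Pearson's r of log2 CPM after removal of group means, over 10 libraries and 14798 genes in eWAT or 11055 in liver. In eWAT the closest reported here were Rgcc and Pxdn for Igfbp4, Car3 and Mmd for Igfbp5 (r = 0.99 or above for each), Capns1, Gpr146 and Flot1 for Igfbp7 (0.99), and Il6ra, Lrrc8a and Serping1 for Igfbp6 (0.98 to 0.99). Igfbp3 was most like Chml, Map4k3 and Tut7 (0.98 to 0.99). For Igfbp2 they were Wnt4 and Clca3a2 (0.90), and these values may rest on IR 4A 1, the only eWAT library high in Igfbp2 (60.8 CPM). In liver the closest were Bak1 for Igfbp1 (0.94), Prss53 for Igfbp2 (0.96), Gas2 for Igfbp3 (0.96), Gtse1 for Igfbp4 (0.95), Fcna, a lectin of macrophages, for Igfbp5 (0.96), Yif1a for Igfbp6 (0.96) and Parvb for Igfbp7 (0.99). With 10 libraries and so many genes, a high r of this kind is a description only.

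In the authors' deposited table for liver, Igfbp3 had a log2 fold change of 1.11 (adjusted p = 0.0123) and Igfbp5 1.37 (adjusted p = 0.00688), both past 0.05, while Igfbp6 had 1.67 with p = 0.00265 and no adjusted value. Of 13287 genes with an adjusted p in liver, 332 were under 0.05. Igfbp7 had 0.42 (adjusted p = 0.287), Igfbp1 -0.29 (0.539), Igfbp2 0.07 (0.912) and Igfbp4 0.03 (0.874) in the authors' deposited table. For eWAT, none of the 7 had an adjusted p under 0.05 in the authors' deposited table, the lowest being 0.117 for Igfbp4, with a log2 fold change of -1.38. Igfbp1 had no adjusted p in eWAT. Of 18715 genes with one, 505 were under 0.05. The deposited table gives Igfbp2 in eWAT, where 1 library was high, a log2 fold change of 0.70 and no p-value. The direction of its columns is not labelled, and was read as IR 4A over WT because 93.0% of genes in eWAT and 88.7% in liver had the sign of IR 4A over WT in the deposited counts.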

How the data were processed

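Poly-A RNA of 5 libraries in each of 4 groups was sequenced as paired reads of 100 bases, per the labels' protocols, and all samples were prepared at the same time. The deposited estimated counts came from Salmon 1.8.0 on GRCm39, per the submitters' processing notes, and were rounded to whole numbers before use. The authors' deposited comparison tables, from DESeq2 1.32.0 per the submitters' processing notes, hold log2 fold changes, p-values and a mean normalised signal per gene, per the file headers, and served only where named. How Salmon's transcript estimates were summed to genes is not given in the sources used here.

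The main test was the quasi-likelihood test of edgeR 4.0.16 (R 4.3.3) with TMM scaling and Benjamini-Hochberg adjustment at 0.05 over all genes tested, after a filter of at least 10 counts per library in enough libraries and 15 in all. It was run per tissue, and on all 20 libraries for the difference between tissues and for eWAT over liver, where levels are on the scale of that fit. Repeated gene entries (208 in eWAT and 83 in liver) were dropped, which left 20738 and 15608 genes, of which 16476 and 12421 were tested. No 2 libraries of a group agreed within sampling noise, the lowest chi-square per degree of freedom being 12.5. Levels per length used GENCODE M21 lengths on GRCm38, a different build from the authors', so lengths are approximate. Intervals and limits at 0 counts cover counting error only. The tests were also run on simulated counts, drawn independently for each gene. In eWAT the genes varied together, so that run cannot show how the tests behave on such data.

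The alternatives were RLE, upper-quartile and total-count scaling, other filters, a robust prior, DESeq2 1.42.0, limma 3.58.1 voom with sample weights, a replicate block, 1 fit of all libraries, marker covariates, and leaving out libraries. Those on total counts, marker covariates and sperm-marker libraries were chosen after seeing the data. The members and gene lists were chosen with earlier results of these data known. The 7 carriers were always named. From each list of other genes, up to 4 with the lowest adjusted p per tissue could be named, with Igf1, Igf2, Igfals, Igf1r, Ghr, Pappa, Stc2 and Foxo1 whatever their result, and the 3 most alike genes per carrier, of which some are not reported here. A deposited table of normalised values was not used.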

Additional observations from a re-analysis of the deposited data

Results flagged for a closer look

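Single libraries stood far from their group in 3 of 26 groups of values checked. The cut-off, a gap above 0.71 of the group's range, is passed by about 1 in 20 groups of independent, normally distributed values. The genes varied together in eWAT, with r = 0.89 between Igfbp4 and Igfbp6, so these shares cannot be set against each other. Igfbp2 stood at 60.8 CPM in eWAT IR 4A 1, against 11.7 to 16.3 CPM in the other 4 libraries of that group. Igfbp4 stood at 556.4 CPM in eWAT WT 4, against 176.5 to 280.8 CPM in the rest of its group, and Igfbp6 at 131.1 CPM in the same library, against 45.5 to 67.3 CPM. That library also had the highest adipocyte marker sum, 31030 CPM, against 9344 to 14761 CPM in the other WT eWAT libraries, and its part in these values was not tested.

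The IR 4A change differed between the tissues for Igfbp3 by -1.75 and for Igfbp6 by -2.58 (eWAT minus liver, log2), by the edgeR test of the difference itself (adjusted p = 0.0395 and 0.0356). In liver Igfbp6 rested on 10 to 26 counts per IR 4A library and 0 to 9 per WT library.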

How the results depend on the processing

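Of 942 values of the 7 genes under an alternative, 922 kept their direction, of which 29 lost and 18 gained a call, and 20 reversed, of which 1, Igfbp3 in eWAT over liver in IR 4A with total-count scaling, gained a call. The count of genes changed in liver was 1, and became 451 with DESeq2, 4 with limma voom, 49 with all 20 libraries in 1 fit, 386 with total-count scaling, 0 without liver WT 1 and 3, 0 with the fibroblast covariate, and 0 to 143 with single libraries left out (143 without IR 4A 1). In eWAT it was 2, and became 1 with upper-quartile or total-count scaling or the stricter filter, 0 with no filter, without the 4 sperm-marker libraries or with the epididymal covariate, 1204 with DESeq2, 78 with limma voom, 295 in the 20-library fit, 1337 with the fibroblast covariate, and 0 to 6 with single libraries left out. The 354 genes with a different change became 1273 with DESeq2, 628 with limma voom, 731 with total-count scaling, 96 without liver WT 1 and 3, 23 without the sperm-marker libraries, and 70 to 729 with single libraries left out. Counts between tissues stayed within 1.5 times under every alternative, at 10745 to 11353 in IR 4A and 11035 to 11396 in WT with single libraries left out. The cause of these moves was not tested.

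Whether the same replicate number in eWAT and liver marks the same mouse is not given by the labels. Deviations of same-numbered libraries correlated at -0.16 to 0.07 between eWAT and liver in IR 4A and at -0.09 to 0.03 in WT. A low r between tissues cannot exclude a shared mouse, so these values do not decide the pairing. Apart from the replicate block, the tests between tissues treated all libraries as independent. Between genotypes, which cannot share a mouse, r was -0.07 to 0.08 in liver. In eWAT it was -0.73 to 0.67, with 1 of 5 pairs over 0.1. With the replicate block, 3 genes changed in liver, 0 in eWAT and 0 differed between tissues, where Igfbp3 had -1.70 (edgeR adjusted p = 0.101) and Igfbp6 -2.50 (adjusted p = 0.0913).

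The sign of Igfbp4 in liver, near 0, turned to 0.00025 with the stricter filter, 0.0062 with limma voom, 0.027 in the 20-library fit, 0.15 with total-count scaling and 0.071 with the fibroblast covariate, and ran from -0.029 to 0.025 with single libraries left out. Igfbp2 in liver turned to -0.26 without WT 1 and 3, and ran from -0.10 to 0.13 with single libraries left out. Igfbp2 ran from -0.032 to 0.86 in eWAT and from -0.070 to 0.79 in the difference between tissues, both lowest without eWAT IR 4A 1. Igfbp3 in eWAT over liver, IR 4A, turned to 0.77 with total-count scaling. The fibroblast covariate turned Igfbp3 to 0.32, Igfbp4 to 0.55, Igfbp5 to 0.80, Igfbp6 to 0.28 and Igfbp7 to 0.39 in eWAT, and the cause was not tested. Depth limits Igfbp6 in liver and Igfbp1 in eWAT.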
